A study of Mus musculus with 8 samples.

Results

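Imprinted genes are the genes that a mammalian embryo transcribes mainly from the copy inherited from a particular parent, and 41 of them were followed here in mouse blastocysts with a changed or missing Isca2 gene. The 41 were taken by symbol from the 55471 gene identifiers of the deposited tables as known mouse imprinted genes. That rule used no measured value, but the choice was made with earlier results of these data known. Of the 41, 22 are known as paternally expressed and 19 as maternally expressed, and all 41 symbols matched an identifier. Isca2 encodes a mitochondrial carrier protein of iron-sulfur cluster assembly. The blastocysts were of embryonic day 4.5 and gave 8 RNA libraries: 3 homozygous for the G77S form of Isca2 (Isca2 G77S/G77S, here G77S), 2 knockout (Isca2 -/-, here KO) and 3 wild type (WT). Per the labels' protocols, Isca2 heterozygous females were superovulated and mated with heterozygous males, and embryos were cultured before full-length cDNA was amplified. Neither the mating behind the G77S embryos nor the number of embryos per library is stated in the labels, and litters are not named. A p-value here thus reflects variation among the libraries, some of which may be technical.

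Imprinting rests on methylation marks that sperm or oocyte place on control regions and that the embryo keeps while most other methylation is erased before implantation. KRAB zinc-finger proteins such as ZFP57, with TRIM28 and DNMT1, hold these marks, and TET enzymes oxidise methylated cytosine. A smaller set, called non-canonical, is silenced on the maternal copy through H3K27me3 inherited from the oocyte and is known mainly from trophoblast. Many imprinted genes act on growth and placenta, and several show the parental bias only in some tissues. The deposited values are totals over both parental copies, so nothing below measures which copy was read or how it was methylated.

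The libraries held between 10323965 and 23842619 expected counts. From gene lengths and effective lengths, mean fragments measured 182.4 to 186.1 bases in G77S, against 243.7 to 292.1 bases in KO and WT. Any effect of that difference and the effect of G77S cannot be told apart. The targeted gene Isca2 had 89.1 to 133 CPM (expected counts scaled to library size with TMM factors) in G77S, 4.84 and 6.20 CPM in KO, and 86.9 to 173 CPM in WT. Summed RNA of 4 Y-linked genes was 0.0700 CPM in G77S replicate 1 and 0.335 CPM in WT replicate 1, and 215 CPM or more in the 6 others. Trophectoderm, epiblast and primitive endoderm genes were present in all 3 genotypes, although the primitive endoderm markers Gata4, Sox17 and Sox7 and the epiblast markers Sox2 and Esrrb had 0 counts in every WT library. All 6 cumulus and granulosa markers had 3 or fewer counts in every library.

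The promoters of the genes that passed the test in a comparison are shown first, since promoter CpG and ZFP57 recognition letters are features that the choice of genes did not use. They are RefSeq promoter windows of GRCm38.p6, from 250 bases before to 50 bases after the annotated start, printed 5′ to 3′ on the strand of the gene. Capitals mark TGCCGC on either strand, the core recognised by ZFP57. Mest has a pair of start regions. The downstream window held 2 matches and 17 CpG, and the upstream window held 0 matches and 8 CpG. The gene counts do not tell which start was used. The downstream of the Sfmbt2 windows held 0 matches and 16 CpG, and the upstream of the Commd1 windows held 1 match and 18 CpG. The upstream Sfmbt2 window, with 0 matches and 9 CpG, is not printed. Nor is the downstream Commd1 window, with 0 matches and 17 CpG.
Mest upstream, chr6:30733256-30733555, plus strand: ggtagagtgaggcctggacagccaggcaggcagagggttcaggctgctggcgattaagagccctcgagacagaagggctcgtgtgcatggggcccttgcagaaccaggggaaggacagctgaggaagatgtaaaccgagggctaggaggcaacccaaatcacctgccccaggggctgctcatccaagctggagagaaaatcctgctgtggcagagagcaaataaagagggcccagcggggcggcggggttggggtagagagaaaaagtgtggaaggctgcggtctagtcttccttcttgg
Mest downstream, chr6:30737800-30738099, plus strand: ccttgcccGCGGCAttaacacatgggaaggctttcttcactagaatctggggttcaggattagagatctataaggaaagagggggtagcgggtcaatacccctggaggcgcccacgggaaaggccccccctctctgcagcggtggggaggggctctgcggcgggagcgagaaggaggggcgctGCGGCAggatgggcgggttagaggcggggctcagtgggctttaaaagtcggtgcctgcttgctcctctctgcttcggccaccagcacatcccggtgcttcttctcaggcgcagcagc
Sfmbt2 downstream, chr2:10372186-10372485, plus strand: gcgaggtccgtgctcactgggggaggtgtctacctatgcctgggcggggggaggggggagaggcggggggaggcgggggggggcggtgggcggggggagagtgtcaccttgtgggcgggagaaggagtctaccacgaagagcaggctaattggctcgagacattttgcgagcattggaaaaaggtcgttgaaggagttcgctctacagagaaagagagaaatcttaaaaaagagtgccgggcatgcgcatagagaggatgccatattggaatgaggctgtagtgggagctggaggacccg
Commd1 upstream, chr11:22982235-22982534, minus strand: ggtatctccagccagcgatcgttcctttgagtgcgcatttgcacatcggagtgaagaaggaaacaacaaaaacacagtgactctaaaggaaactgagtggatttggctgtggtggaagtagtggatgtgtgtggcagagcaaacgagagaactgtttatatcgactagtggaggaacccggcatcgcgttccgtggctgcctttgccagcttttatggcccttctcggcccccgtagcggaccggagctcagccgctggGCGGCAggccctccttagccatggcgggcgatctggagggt
Promoter windows were listed for 34 of the 41 genes, 53 windows in all. TGCCGC on either strand was in 11 of these 53 windows (20.8%), against 11.6% of 32851 windows of all genes. The exact 95% interval of the imprinted share, 10.8 to 34.1%, contains the share of all windows, and 2 of the 11 are the downstream Mest start listed at positions 3 bases apart. The imprinted windows also held more CpG, with a median of 16 against 7, so the shares are not matched for base composition. A match is a stretch of letters and not a measured binding site.

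Among the 41 genes, Commd1, Snrpn and Nap1l4 had the highest levels in these blastocysts. On the TPM scale, which corrects for transcript length, Commd1 led with 265 ± 29.4 in G77S, 306 ± 48.5 in KO and 210 ± 9.11 in WT (SD, n = 3, 2 and 3). Snrpn followed with 120 ± 21.96 TPM in G77S, 79.3 ± 5.46 in KO and 110 ± 18.3 in WT. Nap1l4 came next at 47.0 ± 4.08, 24.1 ± 7.06 and 33.3 ± 4.84 TPM in G77S, KO and WT. A mean of at least 10 CPM in some genotype was reached by 14 genes, 6 paternally and 8 maternally expressed. More than 3 counts in all 8 libraries were found for 19 genes, and in 1 to 7 libraries for 15. The remaining 7 were at the floor of 3 or fewer counts in every library: the paternally expressed Ndn, Magel2, Dlk1, Rtl1, Dio3 and Nap1l5 and the maternally expressed Zim1. Of these, Ndn and Magel2 are known from neurons, Dlk1 encodes a Notch-related membrane protein, Rtl1 is a retrotransposon-derived placental gene, Dio3 encodes a deiodinase that inactivates thyroid hormone and Nap1l5 is a nucleosome assembly protein family gene. A gene at this floor was not detectable at this depth.

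**Figure D1:**
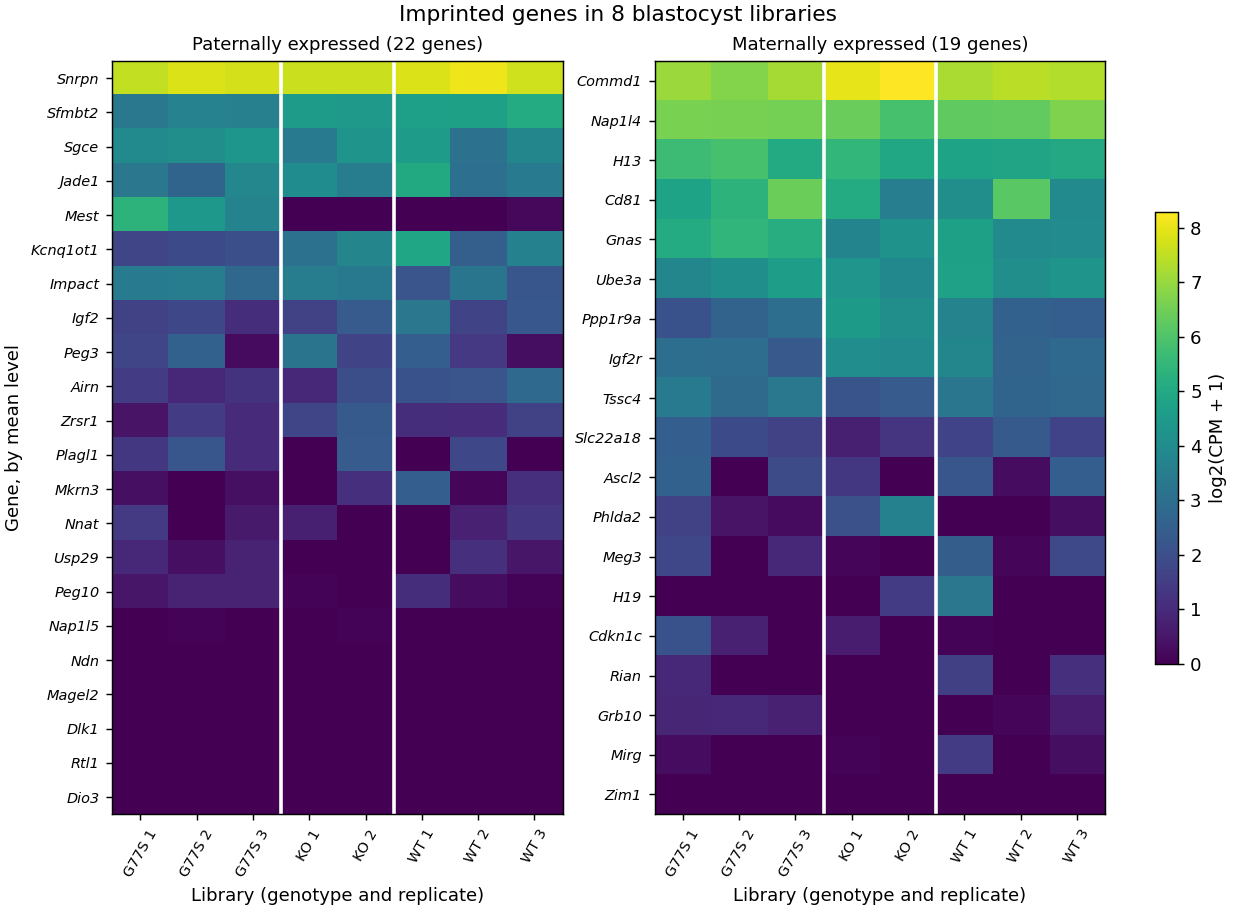
Heat map of log2(CPM + 1) for the 22 paternally expressed genes (left) and 19 maternally expressed genes (right), with columns for the 3 G77S, 2 KO and 3 WT libraries and rows ordered by mean level. Mest is bright in the G77S columns alone, Snrpn and Commd1 are bright in every column, and 6 paternally expressed rows and the Zim1 row stay dark throughout.

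Mest, a paternally expressed gene that encodes an alpha/beta hydrolase-fold protein of mesoderm and growth, was higher in G77S than in KO and WT, where it was at the floor. The gene is protein coding, at chr6:30723547-30748465 (GRCm38, plus strand). Mest had 40.2, 20.5 and 12.1 CPM in the G77S libraries, against 0 in both KO libraries and 0, 0 and 0.139 CPM in the WT libraries. Every G77S library thus lay above every other library. With 1017 counts over the G77S libraries and 3 over the WT libraries, the ratio was 415, with an exact 95% counting interval of 142 to 2015. Against KO, with 0 counts, Mest was at least 299.6-fold higher in G77S, taking 3 counts over the KO libraries as the floor. The edgeR quasi-likelihood test gave an adjusted p of 0.00368 for G77S versus WT and 0.00506 for G77S versus KO, and no fold is given for KO versus WT, where both groups were at the floor. Each of the 16 alternative fits kept both calls, with adjusted p up to 0.0267 and 0.0383. On log2(TPM + 1), which understates low genes, the log2 differences were 3.34 against WT and 3.37 against KO. In bulk samples such as these, fewer cells of a type and less RNA per cell cannot be told apart.

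The 3′ neighbour of Mest, Copg2, runs on the opposite strand and shares 912 exonic bases with it (23.1% of the exonic bases of Mest). Strand use in the counting is not stated, so reads of this stretch could fall to either gene. Copg2, a coat protein gene of Golgi transport vesicles, had 12.2, 10.8 and 10.2 CPM in G77S, 6.91 and 9.96 CPM in KO, and 14.6, 6.65 and 13.9 CPM in WT. Its levels in G77S overlapped those in WT, unlike those of Mest. The 8 epiblast markers summed to 648 to 775 CPM in G77S, 436 to 541 CPM in KO and 471 to 553 CPM in WT, and 0 of the 8 were at the floor in every library. Within the list, Pou5f1 had 26.7 to 52.9 CPM in G77S, 2.89 and 3.87 CPM in KO, and 4.49 to 7.58 CPM in WT, and Pou5f1, Utf1 and Dppa4 were called higher in G77S than in WT (adjusted p = 0.0104, 0.0118 and 0.0123). Nanog had 66.9 to 176 CPM in G77S, 27.4 and 53.4 CPM in KO, and 221 to 297 CPM in WT, and it was not called for G77S versus WT (adjusted p = 0.107). Utf1 was also called higher in KO than in WT (edgeR adjusted p = 0.0295), at 30.2 and 48.2 CPM in KO. Pou5f1 and Dppa4 were not called for KO versus WT (edgeR adjusted p = 0.413 and 0.306). The part of these epiblast marker differences in the Mest result was not tested.

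Sfmbt2, a polycomb-related gene needed in mouse trophoblast and known for non-canonical imprinting, fell in G77S relative to WT. The gene is at chr2:10370510-10595253 (plus strand). Sfmbt2 had 9.10, 11.8 and 11.3 CPM in G77S, 22.7 and 21.4 CPM in KO, and 24.5, 25.3 and 33.4 CPM in WT. All G77S libraries lay below all others, and both KO libraries lay just under the lowest WT library. The log2 fold change was -1.37 for G77S versus WT (SE 0.33, edgeR adjusted p = 0.0484), -1.04 for G77S versus KO (SE 0.35, adjusted p = 0.132) and -0.33 for KO versus WT (SE 0.36, adjusted p = 0.77). The G77S versus WT call sat at the threshold: it was lost when any library other than WT replicate 1 was left out, with adjusted p from 0.0611 to 0.171. It was also lost on log2(TPM + 1), where the difference was -0.47 (adjusted p = 0.517); in TPM the G77S libraries averaged 4.99 ± 1.71 and the WT libraries 7.43 ± 3.23. The 8 trophectoderm markers summed to 7311 to 10944 CPM in G77S, 27465 to 30630 CPM in KO and 24977 to 28350 CPM in WT. Without the abundant Fabp3, Krt8 and Krt18, the other 5 summed to 186 to 189 CPM in G77S, 89.4 to 131 CPM in KO and 153 to 298 CPM in WT. None of the 8 was at the floor in every library, but Elf5 had 0.0700 to 0.954 CPM in G77S and 7.83 to 10.4 CPM in WT. The 5 trophoblast giant cell and placental markers summed to 115 to 232 CPM in G77S, 1036 to 1052 CPM in KO and 700 to 1516 CPM in WT. Nearly all of that sum was Plac1; Hand1 averaged 0.412 CPM in G77S, 0 in KO and 0.386 CPM in WT, and Prl3d1, Prl2c2 and Tpbpa were at the floor in every library. The part of these markers in the Sfmbt2 and Slc38a4 results was not tested.

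Of the other non-canonical imprinted genes, 1 passed the test. Jade1, a paternally expressed gene for a histone acetyltransferase complex subunit, had 8.68, 5.37 and 13.4 CPM in G77S, 15.5 and 10.4 CPM in KO, and 31.7, 7.25 and 9.96 CPM in WT. The 3 genotypes overlapped, and the high value was WT replicate 1. Among 4 further genes of this kind, all tested, Slc38a4, which encodes an amino acid transporter of placenta and liver, was called lower in G77S than in WT and 0 were called higher, against 2.09% and 1.3% of all genes. Slc38a4 had 176, 254 and 259 CPM in G77S, 473 and 252 CPM in KO, and 510, 554 and 568 CPM in WT, and G77S was at -1.24 against WT on the log2 scale (SE 0.26, edgeR adjusted p = 0.0301). Each G77S library lay below each WT library, while KO replicate 2 lay within the G77S range. Gab1, an adaptor gene of growth factor signalling, averaged 16.9 ± 3.41 CPM in G77S, 12.2 ± 3.01 in KO and 14.4 ± 2.43 in WT. Smoc1, a matrix protein gene, and Xist, the RNA that silences an X chromosome, varied most within a genotype. Smoc1 ran from 3.30 to 4.34 CPM in G77S, from 0.742 to 7.38 CPM in KO and from 0.0558 to 4.17 CPM in WT. Xist stood at 24.1 CPM in G77S replicate 1 and 127 CPM in WT replicate 1, the libraries with little Y-linked RNA, and at 0 to 5.26 CPM in the others.

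The antisense RNA of the Kcnq1ot1 domain on distal chromosome 7 was lowest in G77S without passing the test. Kcnq1ot1 is a long antisense RNA, paternally expressed, that silences its neighbours on the same chromosome. It had 2.31, 2.65 and 3.04 CPM in G77S, 7.79 and 12.6 CPM in KO, and 28.2, 4.77 and 11.6 CPM in WT. Every G77S library lay below every other library, and WT spanned a wide range with WT replicate 1 at its top. The log2 fold change for G77S versus WT was -2.48 (SE 0.64, edgeR adjusted p = 0.0618), which missed the threshold; DESeq2 gave an adjusted p of 0.00278. Kcnq1ot1 has 93092 annotated exonic bases, and with each library's trend over gene length removed the difference was -1.42 (adjusted p = 0.161). Without WT replicate 1 it was -1.62 and without WT replicate 2 it was -2.90.

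The genes that Kcnq1ot1 is known to silence in cis are maternally expressed, and the main edgeR fit called 0 of those measured here. Without the low-count filter edgeR called Phlda2 higher in KO than in WT (adjusted p = 0.00156). Phlda2, which restrains placental growth, had 2.03, 0.340 and 0.174 CPM in G77S, 3.13 and 11.4 CPM in KO, and 0, 0 and 0.232 CPM in WT. Both KO libraries lay above all others, and KO differed from WT by 6.24 on the log2 scale (SE 1.61, edgeR adjusted p = 0.156, DESeq2 adjusted p = 0.00399). For G77S versus WT the Phlda2 difference was 3.16 (SE 1.424, edgeR adjusted p = 0.246). Cdkn1c, which encodes the cell cycle inhibitor p57, had 3.29, 0.680 and 0 CPM in G77S, 0.591 and 0 CPM in KO, and 0.0558, 0 and 0 CPM in WT. Its 57 counts in G77S, against 1 in WT, came from 2 libraries, so the genotypes overlapped. The ratio was 69.8, with an exact 95% counting interval of 12.0 to 2803 and an edgeR adjusted p of 0.209. Slc22a18, a transporter gene, had 2.08 to 4.55 CPM in G77S, 0.650 and 1.43 CPM in KO, and 2.17 to 4.07 CPM in WT. Ascl2, a transcription factor gene of the spongiotrophoblast, was uneven within each genotype, at 0 to 4.97 CPM in G77S, 0 and 1.54 CPM in KO, and 0.199 to 4.54 CPM in WT.

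Cd81, Tssc4 and Nap1l4, of the same domain, are maternally biased mainly in placenta. Cd81, a tetraspanin gene, had 26.9, 39.9 and 86.2 CPM in G77S, 33.1 and 10.7 CPM in KO, and 16.3, 71.8 and 14.5 CPM in WT. It varied more within genotypes than between them. Nap1l4, a histone chaperone gene, had 98.6, 96.2 and 94.4 CPM in G77S, 83.7 and 57.7 CPM in KO, and 76.7, 78.6 and 102 CPM in WT. Tssc4, linked to splicing, had 6.32 to 9.45 CPM in G77S, 3.48 and 4.19 CPM in KO, and 5.36 to 8.64 CPM in WT. Both KO libraries were the lowest for Tssc4, with an adjusted p of 0.598 for KO versus WT.

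At the neighbouring H19-Igf2 locus the paired genes were scarce. H19, a maternally expressed noncoding RNA, had 0 counts in every G77S library, 0 and 32 counts in KO, and 156, 0 and 0 counts in WT. Those counts correspond to 1.70 CPM in KO replicate 2 and 8.70 CPM in WT replicate 1. Igf2, the paternally expressed growth factor gene, was found in all libraries, at 1.13 to 2.45 CPM in G77S, 2.07 and 4.19 CPM in KO, and 2.28 to 8.70 CPM in WT. The highest Igf2 value was also in WT replicate 1. H19 was at least 42.5-fold lower in G77S than in WT, with 3 counts over the G77S libraries as the floor, but the WT counts came from 1 library. Neither gene was called in any of the 3 comparisons of the main fit. Without the low-count filter edgeR called H19 lower in G77S than in WT (adjusted p = 0.00177) and KO (adjusted p = 0.0235). Both of these calls rest on counts from a single WT or KO library.

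Maternally expressed RNAs of the Dlk1-Meg3 domain on chromosome 12 were found in some libraries of G77S and WT and were near 0 in KO. Meg3, Rian and Mirg are noncoding RNAs along a shared stretch that hosts microRNAs and small nucleolar RNAs. Meg3 had 34, 0 and 11 counts in G77S replicates 1, 2 and 3, 2 and 0 counts in KO replicates 1 and 2, and 80, 1 and 55 counts in WT replicates 1, 2 and 3. Rian had 13 counts in G77S replicate 1, 35 in WT replicate 1, 25 in WT replicate 3 and 0 elsewhere. Mirg had 3, 0 and 0 counts in G77S, 1 and 0 in KO, and 31, 0 and 5 in WT, and it did not pass the low-count filter. WT replicates 1 and 3 were thus the libraries in which all 3 RNAs exceeded 3 counts, and KO had 3 counts in all over the 3 genes. The paternally expressed Dlk1, Rtl1 and Dio3 of the same domain stayed at 0. Meg3 was 49.1-fold lower in KO than in WT by summed counts (exact 95% counting interval 13.3 to 410), with an adjusted p of 0.383, and WT replicate 2 lay within the KO range.

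Of the paternally expressed genes of chromosome 7 and proximal chromosome 6 outside these domains, Snrpn had the highest level. Snrpn, a spliceosome protein gene of the Prader-Willi region, had 183, 230 and 217 CPM in G77S, 199 and 198 CPM in KO, and 233, 273 and 208 CPM in WT. KO lay just below the WT range, at -0.26 on the log2 scale (SE 0.22, adjusted p = 0.675). Sgce, encoding epsilon-sarcoglycan, had 14.3, 16.1 and 19.3 CPM in G77S, 9.45 and 18.4 CPM in KO, and 22.8, 7.84 and 13.1 CPM in WT, so that all genotypes overlapped. Peg10, its retrotransposon-derived neighbour needed for the mouse placenta, had 0.420 to 0.781 CPM in G77S, 0 and 0.0591 CPM in KO, and 0.0463 to 1.12 CPM in WT. Peg3, a zinc-finger gene of growth and maternal behaviour, ranged from 0.174 to 4.96 CPM in G77S, was 8.15 and 2.23 CPM in KO and ranged from 0.232 to 4.63 CPM in WT. Usp29, which shares its promoter region with Peg3, had 26 counts over the G77S libraries, 0 over the KO libraries and 21 over the WT libraries. It was thus at least 7.66-fold higher in G77S than in KO and at least 5.05-fold lower in KO than in WT, taking 3 counts over the KO libraries as the floor. WT replicate 1 also had 0 Usp29 counts, so KO and WT overlapped. Mkrn3, a ubiquitin ligase gene, reached at most 0.280 CPM in G77S, 1.17 CPM in KO and 4.57 CPM in WT. None of these genes was called.

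**Figure D2:**
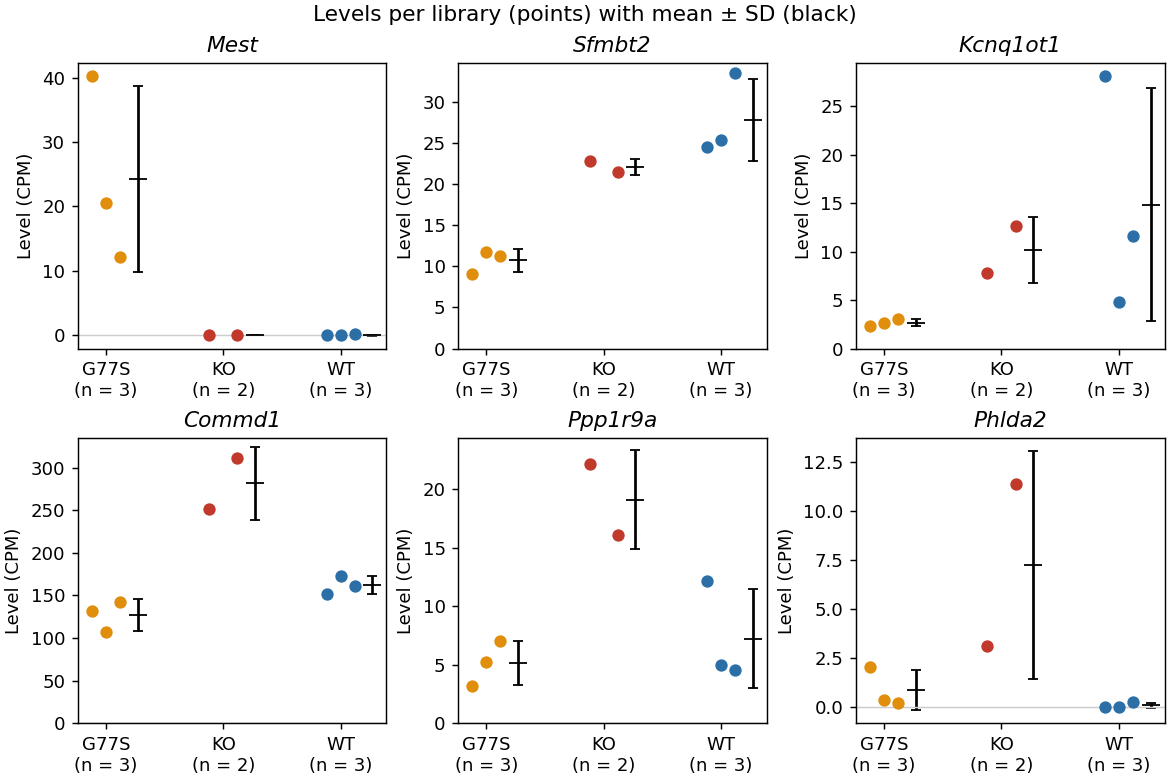
Level in CPM of 6 imprinted genes in each G77S, KO and WT library (points), with mean ± SD in black (n = 3, 2 and 3). Mest points lie between 12.1 and 40.2 in G77S and at or near 0 elsewhere, Sfmbt2 and Kcnq1ot1 points are lowest in G77S, and Commd1, Ppp1r9a and Phlda2 points are highest in KO.

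Commd1, the gene with the highest mean TPM among the 41, was lower in G77S than in KO. It encodes a copper-homeostasis and endosomal sorting protein and is maternally biased in mouse brain. The gene is at chr11:22896136-22982382 (minus strand). Commd1 had 132, 107 and 143 CPM in G77S, 252 and 312 CPM in KO, and 151, 173 and 162 CPM in WT. In CPM the 3 genotypes did not overlap. In TPM the G77S libraries (261, 238 and 296) overlapped the KO libraries (272 and 340). They lay above the WT libraries (220, 204 and 205 TPM), the reverse of the order in CPM. The log2 fold change for G77S versus KO was -1.15 (SE 0.22, edgeR adjusted p = 0.0205), for KO versus WT 0.80 (SE 0.22, adjusted p = 0.178) and for G77S versus WT -0.35 (SE 0.20, adjusted p = 0.373), the last turning to 0.33 on log2(TPM + 1). The G77S versus KO call was lost without either KO library or any G77S library, with adjusted p from 0.0517 to 0.145. On log2(TPM + 1) the difference was -0.20 (adjusted p = 0.534). Zrsr1, a paternally expressed splicing factor gene, lies within Commd1 on the opposite strand and shares 412 exonic bases with it. Zrsr1 had 0.350, 1.77 and 1.04 CPM in G77S, 2.30 and 4.08 CPM in KO, and 1.12, 1.09 and 2.04 CPM in WT. It too was highest in both KO libraries, with an adjusted p of 0.688 for KO versus WT and with reads that cannot be assigned to a strand.

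Ppp1r9a and Igf2r had their highest CPM in both KO libraries without a call. Ppp1r9a encodes neurabin, an actin-binding protein, and is maternally expressed in mouse extraembryonic tissue. It had 3.22, 5.24 and 7.03 CPM in G77S, 22.1 and 16.1 CPM in KO, and 12.2, 4.96 and 4.59 CPM in WT. Both KO libraries lay above all others, and the log2 fold change was -1.89 for G77S versus KO (SE 0.58, edgeR adjusted p = 0.0986, DESeq2 adjusted p = 0.0193) and 1.40 for KO versus WT (SE 0.57, adjusted p = 0.338). Igf2r encodes the receptor that clears IGF2 and has the antisense RNA Airn as its paternal silencer. It had 7.07, 6.80 and 3.99 CPM in G77S, 15.6 and 14.6 CPM in KO, and 13.05, 5.26 and 6.16 CPM in WT. Igf2r was highest in KO (log2 fold change 0.89 against WT, SE 0.54, adjusted p = 0.525). Airn had 1.75, 0.952 and 1.301 CPM in G77S, 0.886 and 3.02 CPM in KO, and 3.23, 3.57 and 6.07 CPM in WT. All G77S and KO libraries lay below all WT libraries for Airn, with adjusted p-values of 0.27 for G77S and 0.65 for KO.

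Gnas and H13, maternally biased genes of chromosome 2, had their highest means in G77S without passing the edgeR test. Gnas encodes the stimulatory G protein alpha subunit and related products of a locus with several promoters. It had 33.7, 43.3 and 34.7 CPM in G77S, 12.5 and 18.3 CPM in KO, and 25.4, 14.7 and 15.2 CPM in WT. Each G77S library exceeded each other library, and the log2 fold change was 1.01 against WT (SE 0.35, edgeR adjusted p = 0.136, DESeq2 adjusted p = 0.0445). Against KO it was 1.27 (SE 0.40, edgeR adjusted p = 0.109), called by DESeq2 (adjusted p = 0.0197) and by limma on log2(TPM + 1) (adjusted p = 0.0198). H13, which encodes signal peptide peptidase, had 50.2, 57.5 and 32.5 CPM in G77S, 44.2 and 30.8 CPM in KO, and 27.3, 28.0 and 30.9 CPM in WT. The log2 fold change against WT was 0.70 in G77S (SE 0.31, adjusted p = 0.233). Ube3a, a ubiquitin ligase gene imprinted in neurons, had 13.02, 16.5 and 23.6 CPM in G77S, 19.1 and 13.6 CPM in KO, and 26.0, 16.3 and 18.4 CPM in WT, with all genotypes overlapping.

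The remaining members were low. Impact, a translation regulator gene, had 5.90 to 10.4 CPM in G77S, 10.3 and 9.27 CPM in KO, and 3.51 to 8.44 CPM in WT. Plagl1, a zinc-finger regulator of other imprinted genes, was found in 5 libraries, at up to 3.67 CPM in G77S, 4.19 CPM in KO and 2.48 CPM in WT. Nnat, a membrane proteolipid gene of brain, was also found in 5 libraries and at most at 1.68 CPM. Grb10, an adaptor that limits growth, had 12, 13 and 8 counts in the G77S libraries, 0 in both KO libraries and 0, 1 and 12 in the WT libraries. By summed counts over 3 counts as the KO floor, Grb10 was at least 9.72-fold higher in G77S than in KO. None of these was called.

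The filter on low counts kept 33 of the 41, 16 paternally and 17 maternally expressed. For KO versus WT 0 of 33 were called by edgeR, against 0.122% of all 13953 genes tested (0.0788% higher and 0.043% lower). At an unadjusted p under 0.05 there were 5 of 33, against 13% of all genes. DESeq2 called 2, Commd1 and Phlda2, against 646 of the 12533 genes to which it gave an adjusted p. For G77S versus WT 1 was higher and 1 lower, Mest and Sfmbt2, both paternally expressed, against 3.39% of all genes called (1.3% higher and 2.09% lower). At an unadjusted p under 0.05 there were 8, against 20.0% of all genes. For G77S versus KO 1 was higher and 1 lower, Mest and Commd1, against 4.19% of all genes (1.76% higher and 2.43% lower). At an unadjusted p under 0.05 there were 10, against 20.7% of all genes. In each of the G77S comparisons the 2 calls were 6.06% of the members tested. The libraries did not overlap for 11 of 33 genes in KO versus WT, 6 higher and 5 lower, against 25.6% of all genes (13.1% and 12.5%). In G77S versus WT 8 did not overlap, 4 higher and 4 lower, against 29.0% of all genes (17.2% and 11.8%). In G77S versus KO 15 did not overlap, 8 higher and 7 lower, against 44.9% of all genes (24.9% and 20.0%). These comparisons share libraries, so their results are not independent of each other.

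Paternally and maternally expressed genes had similar medians in KO. The median log2 fold change for KO versus WT was -0.44 for the paternally and -0.31 for the maternally expressed genes tested, against -0.06 for all genes. For G77S versus WT the medians were -0.09 and 0.15, against 0.03 for all genes. For G77S versus KO the median was -0.34 for paternally expressed genes, with 6 of 16 positive. It was 1.11 for maternally expressed genes, with 12 of 17 positive, against 0.10 for all genes. Of the positive genes, Grb10, Meg3, Rian, Mest, Usp29 and Peg10 had 3 or fewer counts over the KO libraries. Of the negative genes, H19 had 0 counts in G77S. Their fitted sizes are not interpretable. With bounds in place of sizes that rest on 0 counts, both medians were unchanged. No median without these genes is given. Over the alternative fits the median for maternally expressed genes in G77S versus KO ran from 0.33 to 1.16, the lowest without G77S replicate 1. That for paternally expressed genes ran from -0.50 to 0.18 and turned positive on log2(TPM + 1) and, at 0.12, without KO replicate 2. In KO versus WT the paternal median ran from -0.82 without WT replicate 2 to -0.07 without WT replicate 1, and the maternal median from -0.71 to -0.22. In G77S versus WT both turned sign, running from -0.39 to 0.05 for paternally and from -0.13 to 0.39 for maternally expressed genes. On log2(TPM + 1) the median of all genes itself moved to 0.23 for G77S versus WT and 0.34 for G77S versus KO.

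**Figure D3:**
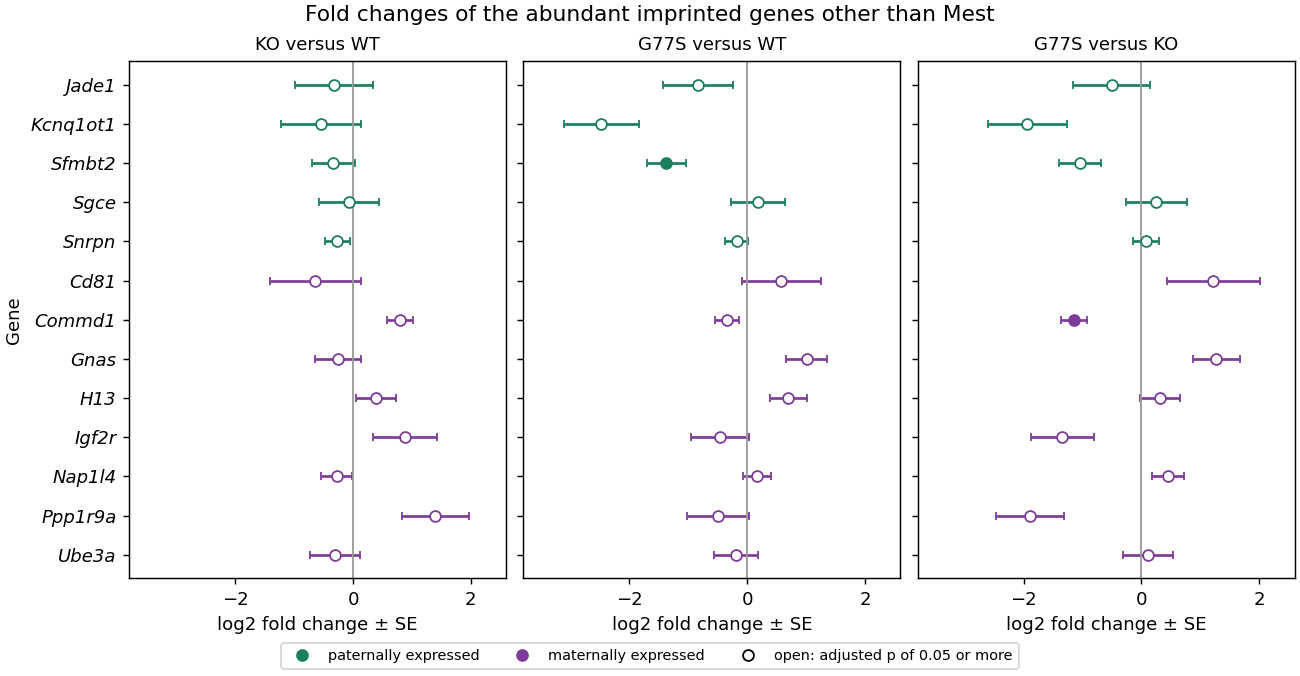
Log2 fold change ± SE of the 13 abundant imprinted genes other than Mest in KO versus WT, G77S versus WT and G77S versus KO, with green for paternally and purple for maternally expressed genes and filled points for an adjusted p under 0.05. Sfmbt2 in G77S versus WT (-1.37) and Commd1 in G77S versus KO (-1.15) are the filled points.

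**Figure D4:**
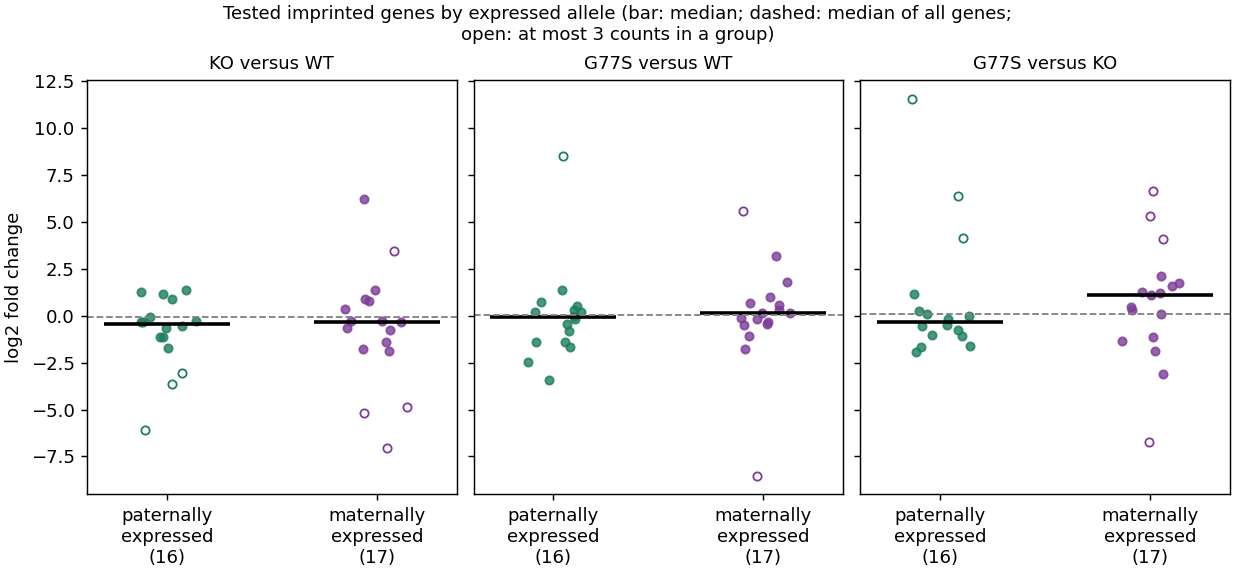
Fitted log2 fold change of the 16 paternally and 17 maternally expressed genes tested, in the 3 comparisons, with black bars for medians and a dashed line for the median of all genes. Open points have 3 or fewer counts in a group, where the fitted size is not interpretable. The bars include the open points and stay near the dashed line except for maternally expressed genes in G77S versus KO (1.11).

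Of 26 genes linked to imprint marks or their removal, with Tet1, Tet2, Tet3 and Tdg among them, 24 were tested. For KO versus WT and G77S versus WT 0 were called, against 0.122% and 3.39% of all genes. At an unadjusted p under 0.05 there were 7 for KO versus WT and 5 for G77S versus WT, against 13% and 20.0% of all genes. For G77S versus KO 1 was called higher and 0 lower, against 4.19% of all genes, and 2 had an unadjusted p under 0.05, against 20.7%. That gene was Dppa3, which shields the maternal genome from demethylation in the zygote. Dppa3 had 6776, 5336 and 6890 CPM in G77S, 1197 and 2139 CPM in KO, and 4262, 5585 and 2813 CPM in WT. Both KO libraries were the lowest, and G77S exceeded KO by 1.92 on the log2 scale (SE 0.34, edgeR adjusted p = 0.0126). Eed is a subunit of polycomb repressive complex 2. It had 259, 258 and 235 CPM in G77S, 281 and 359 CPM in KO, and 143, 197 and 165 CPM in WT. Thus G77S and KO lay above WT for Eed, without a call (adjusted p = 0.146 and 0.138). Suz12 and Ezh2 of the same list overlapped WT in both mutants. On the log2 scale against WT, Suz12 was at -1.05 in G77S and -0.49 in KO, and Ezh2 at 0.32 and -0.26. Over the list, libraries did not overlap for 7 of 24 genes in KO versus WT and 6 in G77S versus WT. The shares of all genes were 25.6% and 29.0%. Zfp57 had 5.39, 3.20 and 5.38 CPM in G77S, 7.56 and 13.5 CPM in KO, and 0, 3.28 and 1.02 CPM in WT. KO was highest for Zfp57, 2.91 above WT on the log2 scale (SE 1.19, adjusted p = 0.338); Zfp57 was chosen here for its role and after its values were seen. Of 36 further imprinted genes 22 were tested and 0 were called in any of the 3 comparisons, against 0.122%, 3.39% and 4.19% of all genes for KO versus WT, G77S versus WT and G77S versus KO. At an unadjusted p under 0.05 there were 3, 5 and 3 in the same order, against 13%, 20.0% and 20.7% of all genes. The most abundant of them were Pon2, a paraoxonase gene, at 153 ± 53.5 CPM in G77S, 125 ± 71.7 in KO and 230 ± 122 in WT, and Mcts2, a translation factor retrogene within H13, at 45.0 ± 3.17, 39.0 ± 4.72 and 44.1 ± 15.8 CPM.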

How the data were processed

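RNA was measured in 8 libraries of day 4.5 blastocysts (3 G77S, 2 KO, 3 WT). The deposited tables hold RSEM expected counts, TPM and transcript lengths per gene, per the file headers; 1 table per library, not pooled. Trim Galore 0.4.5, STAR 2.6.1c, RSEM 1.3.1, DESeq2 1.42.1 and mm10 (GRCm38) are named, per the submitters' processing notes. Neither the strand setting nor the annotation release is known from the sources used here. GENCODE M21 named 55230 of 55471 identifiers (99.6%).

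Expected counts were rounded and tested with edgeR 4.0.16 (R 4.3.3): TMM scaling, the default low-count filter (13953 genes kept), 1 mean per genotype over all 8 libraries, quasi-likelihood F tests and p-values adjusted by Benjamini-Hochberg over all genes tested, with calls at an adjusted p under 0.05. An adjusted p with no named tool is edgeR's. The common biological coefficient of variation was 0.655. The steps were tested on simulated data. The SE is the fold change divided by the square root of F. TPM, scaled within each library by the authors, was used for levels between genes and, as log2(TPM + 1), with limma 3.58.1 as an alternative; DESeq2 1.42.0 was another. In a library 3 counts correspond to 0.139 to 0.298 CPM. Counting intervals are exact for independent counts and do not cover variation among libraries. Reads carry no molecular identifiers, so amplified copies may be counted as separate reads and the intervals may be too narrow.

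The genes, lists and tests were chosen with earlier results of these data known. Library values are given for genes called or averaging at least 10 CPM in a genotype, others by range; those of low genes at a shared locus were added after their values were seen. From each further list called genes, or else the most abundant, are named. Eed, Suz12, Ezh2 and Zfp57, which were not called, are named as well.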

Additional observations from a re-analysis of the deposited data

Results flagged for a closer look

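Mest and Commd1 differed between the mutant genotypes by the direct edgeR test of G77S versus KO, that is, the effects of the mutations against the shared WT libraries differed. Mest had a fitted log2 fold change of 11.58 (adjusted p = 0.00506; higher in 3 of 3 G77S libraries), a size that rests on 0 counts in KO and is not interpretable beyond the bound of at least 299.6-fold. Commd1 had -1.15 (adjusted p = 0.0205, lower in CPM in 3 of 3 G77S libraries). In TPM, G77S replicate 3 (296) lay above KO replicate 1 (272). The G77S libraries also had the shorter fragments, and genotype and preparation cannot be told apart.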

How the results depend on the processing

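The Mest calls were kept in all 16 alternatives, and those of Sfmbt2 and Commd1 were not. The number of imprinted genes called for KO versus WT, G77S versus WT and G77S versus KO (0, 2 and 2) became 2, 4 and 6 with DESeq2 and 1, 4 and 5 without the low-count filter. Without the filter the genes added were Phlda2 for KO versus WT, and H19 and Kcnq1ot1 for G77S versus WT. For G77S versus KO they were H19, Kcnq1ot1 and Ppp1r9a. For G77S versus WT the number called was 1 on log2(TPM + 1). Leaving out each library gave 0 to 0, 1 to 2 and 1 to 3. All genes called (17, 473 and 585) became 646, 1538 and 1699 with DESeq2, 547, 1336 and 1411 without a filter, 95, 1466 and 1849 on log2(TPM + 1), and 11, 666 and 1009 with only the compared groups. DESeq2 gave an adjusted p to 12533, 13073 and 12803 genes in the same order, and 22958 genes were tested without a filter. For KO versus WT the stricter filter gave 60 genes called. For G77S versus WT the stricter filter gave 746 and the removed length trend 769. Leaving out each library gave 0 to 42, 86 to 638 and 161 to 949. With the replicate number as a block, 8, 411 and 600 genes and 0, 1 and 2 imprinted genes were called, and Sfmbt2 for G77S versus WT had an adjusted p of 0.0782. Correlations of deviations ran from -0.02 to 0.07 between same-numbered libraries and from -0.07 to 0.06 between differently numbered ones. Not every library was closest to its own number. The 2 KO libraries gave equal and opposite values, such as 0.07 and -0.07 with WT replicate 1. This check therefore cannot decide whether the numbers mark libraries prepared together.

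Some uncalled fold changes turned sign, and not all of them were near 0 in the main fit. In G77S versus WT, Jade1 had -0.83 and Cd81 0.58 in the main fit. In KO versus WT, Cd81 had -0.64 and Kcnq1ot1 -0.54. With the length trend removed, Kcnq1ot1 and Jade1 had 0.13 and 0.13 in KO versus WT, Sgce, Igf2r and Nap1l4 had -0.051, 0.0498 and -0.019 in G77S versus WT, and Snrpn and Ube3a had -0.20 and -0.12 in G77S versus KO. On log2(TPM + 1), Sfmbt2 had 0.0039 in KO versus WT, and Snrpn, Ppp1r9a, Ube3a and Commd1 had 0.12, 0.39, 0.64 and 0.33 in G77S versus WT. Under the block Sgce had 0.0076 in KO versus WT. Leaving out each library, KO versus WT values ran from -0.96 to 0.32 for Kcnq1ot1, -0.63 to 0.415 for Sgce, -0.68 to 0.59 for Jade1, -0.56 to 0.049 for Gnas and -1.67 to 0.50 for Cd81. Those for G77S versus WT ran from -0.12 to 0.66 for Sgce, -1.20 to 0.0895 for Jade1, -0.69 to 0.0625 for Igf2r, -0.77 to 0.11 for Ppp1r9a, -0.44 to 0.0305 for Ube3a and -0.0256 to 1.72 for Cd81. For G77S versus KO they ran from -0.16 to 0.81 for Sgce and -0.16 to 0.38 for Ube3a. The cause of these sign changes was not tested. The motif share was 13.2% in the 100 bases around the start, against 5.44% of all windows. The exact interval of this imprinted share, 5.48 to 25.3%, narrowly excluded the share of all windows, unlike that for the whole promoter windows. The imprinted stretches again held more CpG, with a median of 6 against 3, so these shares are not matched for base composition either. Genes at a few counts per library cannot show moderate differences at this depth.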
